A study of Mus musculus with 8 samples.

Results

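The first 2 h of Ikaros activity in pre-B cells were examined by comparing the 2 ATAC-seq peak lists from untreated cells (0 h) with the 2 lists from cells treated for 2 h, which are 4 of the 8 libraries of the series. ATAC-seq uses the Tn5 transposase to cut and tag accessible DNA, and here only fragments from nucleosome-free DNA were used. All libraries came from B3, a line of mouse pre-B cells that carries Ikaros-ERt2, a fusion that enters the nucleus when cells are given 4-hydroxytamoxifen (4-OHT). The 2 h cells received 500 nM 4-OHT and the 0 h cells received no treatment, so what Ikaros did and what the drug or its solvent did cannot be told apart. Per the study's methods the construct was delivered by a retrovirus and the cells were sorted by GFP, so the line is a sorted population and not a single clone. The 30 min and 1 h libraries, 2 of each and also with 500 nM 4-OHT, are used only for the spread between replicates and to place the 2 h values in time. Overlapping peaks of the 4 lists were merged into 152025 regions. The members are the 2326 regions that closed and the 1053 that opened, and the protein-coding genes at which several of them lie.

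Ikaros, the product of Ikzf1, is a zinc finger DNA-binding protein that lymphocytes need for their development and that is often deleted in B-cell leukaemia. It binds DNA through a short core of G and A bases and recruits corepressor complexes, chief among them NuRD, which removes acetyl groups from histones and remodels nucleosomes. In pre-B cells it is known for silencing the pre-B cell receptor genes, for slowing division and for reducing adhesion to the stroma. Open regions far from start sites usually hold enhancers, and a gene with several of them can lose some and keep others.

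Peaks carry no read counts that can be compared between libraries, so each list was ranked on its own, by how far a peak's summit rose above its local background. A region was tested if all 4 lists had a peak in it, which held for 52043 regions, and its shift is the change of its rank from 0 h to 2 h as a normal score. Lower and higher mean an adjusted p under 0.01 (limma). A region was strong at a time if its peak lay at or above percentile 80 of all peaks in both lists of that time, lost if it was strong at 0 h and had no peak in either 2 h list, and gained in the reverse case. Closing regions are the lower and the lost ones, and opening regions the higher and the gained ones. Of the percentiles given, the tested percentile ranks a region among the tested regions of its library, and the list percentile among all peaks of its list.

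The 4 lists were of similar quality. They held 85903 to 103897 peaks, with a background of 0.26 to 0.389 fragments per base and 11 to 14 fragments at the median summit, so the precision of a single weak peak is low. Ranks of the tested regions correlated at 0.854 between the 0 h libraries and 0.871 between the 2 h libraries, and at 0.589 to 0.607 between 0 h and 2 h. Start sites of 9 of 10 pre-B markers had a peak in both 0 h lists. The same held for 0 of 6 erythroid and 0 of 8 T cell markers, for 1 of 8 myeloid markers (Lyz2) and for 1 of 8 fibroblast and epithelial markers (Col1a1). The cells are a bulk sample, so fewer cells with a region open and less opening in each cell cannot be told apart. That the 2 libraries of a time came from separate cultures is not stated, so p-values may measure technical spread.

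The strongest lost and gained regions are shown first as sequence, because they differ in the Ikaros core words, which are GGAA and GGGA with the complements that read them on the other strand, and which are set in capitals. Each line is 150 bases of the plus strand of GRCm38 around the peak summit. The lost regions were at list percentile 98.0 or above in both 0 h lists.
Lost, between genes, chr2:148336057-148336206: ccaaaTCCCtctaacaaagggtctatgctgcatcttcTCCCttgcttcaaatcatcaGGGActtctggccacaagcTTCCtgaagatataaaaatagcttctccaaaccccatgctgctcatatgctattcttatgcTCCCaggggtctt
Lost, Mrgpra2a, chr7:47456877-47457026: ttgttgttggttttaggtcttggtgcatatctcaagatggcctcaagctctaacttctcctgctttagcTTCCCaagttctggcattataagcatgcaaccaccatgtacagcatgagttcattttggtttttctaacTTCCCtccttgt
Lost, Disp3, chr4:148318591-148318740: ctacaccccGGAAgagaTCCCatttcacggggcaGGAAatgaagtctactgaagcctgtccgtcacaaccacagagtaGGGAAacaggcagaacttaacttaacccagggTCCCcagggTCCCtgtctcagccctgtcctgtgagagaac
Lost, Pde4d, chr13:109036542-109036691: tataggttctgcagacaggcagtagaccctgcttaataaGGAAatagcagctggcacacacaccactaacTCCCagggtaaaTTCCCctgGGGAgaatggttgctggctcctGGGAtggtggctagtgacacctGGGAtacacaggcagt
The gained regions were at list percentile 93.5 or above in both 2 h lists, and had no peak at 0 h.
Gained, Gsk3b, chr16:38118499-38118648: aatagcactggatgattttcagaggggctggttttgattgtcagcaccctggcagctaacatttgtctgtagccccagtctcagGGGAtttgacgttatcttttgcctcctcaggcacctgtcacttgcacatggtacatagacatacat
Gained, Sppl2a, chr2:126904207-126904356: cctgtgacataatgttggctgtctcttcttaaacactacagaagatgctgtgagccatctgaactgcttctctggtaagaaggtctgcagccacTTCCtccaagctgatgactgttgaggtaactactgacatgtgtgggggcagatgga
Gained, Mtnr1b, chr9:15880129-15880278: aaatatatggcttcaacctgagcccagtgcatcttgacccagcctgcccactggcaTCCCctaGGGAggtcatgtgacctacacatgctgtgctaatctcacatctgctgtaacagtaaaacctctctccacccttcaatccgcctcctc
Gained, beside Igkv4-80, chr6:69017127-69017276: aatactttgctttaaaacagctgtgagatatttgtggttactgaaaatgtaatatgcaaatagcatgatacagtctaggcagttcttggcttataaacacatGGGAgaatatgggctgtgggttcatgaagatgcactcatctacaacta
The lost sequences hold 5, 4, 7 and 7 core words, in the order shown, and the gained ones 1, 1, 2 and 1. The first lost region lies 59253 bp from the nearest start site. The second lies 4787 bp from a start site of Mrgpra2a, a sensory neuron receptor gene with near-identical neighbours, so its reads may be shared with copies. The last gained region lies 113 bp from the start of Igkv4-80, a variable segment of the immunoglobulin kappa chain, and belongs to a family with the same limit.

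More tested regions passed the threshold as lower than as higher after 2 h. Of the 52043 tested regions 2037 were lower (3.91%) and 904 higher (1.74%), so 69.3% of the calls were lower. Of 14860 regions strong at 0 h 289 were lost (1.94%), and of 16837 strong at 2 h 149 were gained (0.885%). The balance depends on the measure. At an unadjusted p under 0.05 there were 8890 lower and 8621 higher regions, with ranks among all peaks and an adjusted p under 0.05 there were 4178 lower and 5251 higher, and of regions of any strength 11658 had a peak in both 0 h lists and neither 2 h list, against 16305 in the reverse case. The 2 h lists were longer, with 103897 and 99060 peaks against 93936 and 85903 at 0 h, which adds to the last count. In every lower region both 2 h libraries ranked below both 0 h libraries, and in every higher region above. That is not particular to the called regions: 62.3% of all tested regions did not overlap between 0 h and 2 h. Ranks are relative, and the share of lower calls was 56.6% (1101 lower and 843 higher) when regions were ranked among all peaks of a list, a scale on which the median tested region shifted by 0.16, against 0.06 in the main ranking. The calls need all 4 libraries. With limma, 0 regions passed without 0 h replicate 1, without 0 h replicate 2, without 2 h replicate 1 or without 2 h replicate 2, where 7040 to 7360 were lower and 6103 to 7129 higher at an unadjusted p under 0.05. The thresholds cut a continuum: the lower region just inside had an adjusted p of 0.00998 and a shift of −1.56 and the one just outside 0.01001 and −1.25, the higher ones 0.00997 and 1.53 against 0.01001 and 1.3. The lost region just inside the strength limit had its weaker list percentile at 80.06, with 34 and 20 fragments at 0 h, and the one just outside at 79.97, with 21 and 16. For gained regions these were 80, with 20 and 21 fragments at 2 h, and 79.98, with 22 and 32.

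**Figure D1:**
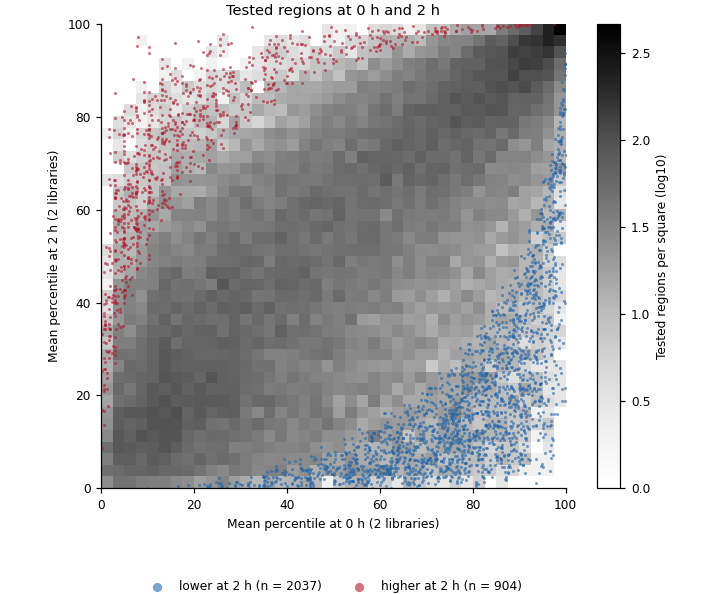
Mean tested percentile of each region in the 2 libraries of 0 h (horizontal axis) and of 2 h (vertical axis), with all tested regions as grey squares shaded by their number on a log10 scale. The 2037 lower regions (blue) lie mostly at high 0 h percentiles, and the 904 higher regions (red) mostly at low ones.

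Closing and opening regions were both rarer at start sites than their references, and they differed in sequence. The ranking used neither place nor sequence. Only 5.88% of the lost and 4.70% of the gained regions lay within 1 kb of a start site, against 41.5% of all regions strong at 0 h and 37.3% of those strong at 2 h. Among the called regions 17.4% of the lower and 10.6% of the higher were at start sites, against 28.0% of all tested. Within 200 bp around the summit, lost regions held 7.03 ± 2.32 core words (mean ± SD, n = 289), lower regions 6.10 ± 2.35 (n = 2037), higher regions 2.99 ± 1.86 (n = 904) and gained regions 2.5 ± 1.61 (n = 149). All regions strong at 0 h held 4.96 ± 2.42 and all tested regions 4.42 ± 2.36, so closing regions were above and opening regions below either reference. The 5-letter word GGGAA or its reverse TTCCC was present in 73.7% of lost, 58.8% of lower, 27.2% of higher and 18.1% of gained regions, against 43.8% of all tested. These are shares of regions, which are not replicates, and carry no test.

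**Figure D2:**
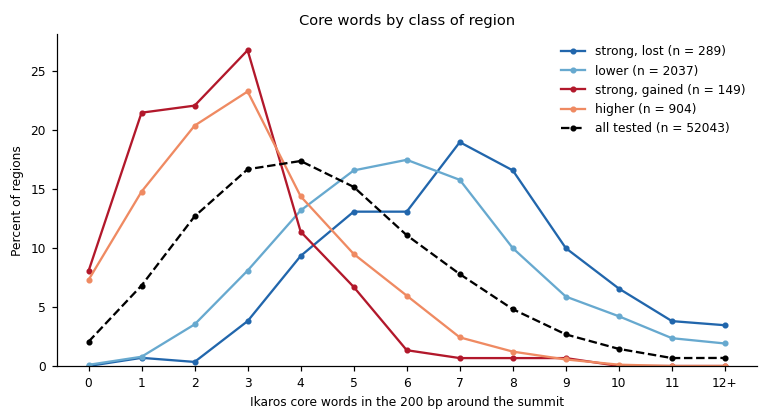
Share of regions (vertical axis, percent) by the number of Ikaros core words in the 200 bp around the summit (horizontal axis, 12 and more pooled) for lost, lower, gained, higher and all tested regions. The curve of lost regions peaks at 7 words, that of all tested at 4 and those of higher and gained at 3.

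Words of other factors were counted on both strands of the same 200 bp, as letters only and not as bound sites. The EBF1 palindrome, which itself contains core words, was in 13.8% of lost and 5.89% of lower regions, against 3.20% of regions strong at 0 h and 2.18% of all tested. RUNX words (TGTGGT) were about equally frequent in lost (35.3%) and gained (35.6%) regions and in 23.3% of all tested. The Forkhead word TGTTTAC was in 6.04% of gained and 0.346% of lost regions (2.19% of all tested), and the KLF word GGGNGTGG in 18.1% and 7.61% (9.48%). The NFAT word TGGAAA, which contains a core word, was in 15.6% of lost and 3.36% of gained regions (12.4%), and E-box words CANNTG in 74.7% and 83.9% (68.1%). The AP-1 word TGANTCA was in 5.88% of lost and 5.37% of gained regions but in 8.79% of lower and 9.40% of higher ones, on either side of the 6.69% of all tested.

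The called regions had moved part of the way at the earlier times. The 30 min and 1 h values were not compared in the call, but these libraries set the spread in the fit, and with the 4 libraries alone 1277 regions were lower and 384 higher. The mean tested percentile of the 2037 lower regions was 77.3 and 77.7 in the 0 h libraries, 43.6 and 44.2 at 30 min, 28.7 in both at 1 h, and 20.7 and 20.4 at 2 h. In 96.1% of the 1967 with a peak in both 30 min lists, both 30 min libraries ranked below both 0 h libraries, and in 84.4% both were still above both 2 h libraries. The 904 higher regions went from 22.8 and 21.3 to 51.2 and 50.2 at 30 min, 64.7 in both at 1 h, and 73.3 and 73.6 at 2 h. A peak needs few fragments, so its presence shows an early gain sooner than an early loss: 131 of the 149 gained regions had a peak in both 30 min lists and 149 in both 1 h lists, while 39 of the 289 lost regions had none at 30 min and 132 none at 1 h. The median lost region had 37 and 27 fragments at its summit at 0 h, and 9 and 9 at 30 min in the libraries with a peak. The median gained region had 11 and 10 at 30 min, then 20 and 18 at 1 h, and finally 27 and 24.

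The closing regions were spread over many genes, and few genes gathered several. Of 15126 protein-coding genes with a tested or strong region 1640 had at least 1 closing region, 807 at least 1 opening region and 191 both. Only 45 had 3 or more closing regions and 4 had 3 or more opening regions. With no region of the other direction, 30 genes had at least 3 closing regions (closing genes) and 1 gene, Edil3, at least 3 opening regions. Genes with many regions have more chances: 34.1% of the 41 genes with 20 or more regions had 3 closing ones, against 5.09% of the 452 with 10 to 19 and 0.311% of the 2251 with 5 to 9. The 30 closing genes had 4 to 30 regions, with a median of 13.5, against 2 over all genes. These genes were picked by their calls, so their counts are a description. Their number also moved with the setting, from 0 with any library left out and 6 with ranks among all peaks to 60 with log2 folds and 388 where a peak in 2 of the 4 lists was enough.

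At the 30 closing genes most regions, closing or not, were intronic. Of their 94 closing regions 77 lay in introns, as did 252 of their 323 other regions. Of the closing ones 16 lay between genes and 7 within 1 kb of a start site, and their median distance from the gene's start was 28.7 kb. They held 6.09 ± 2.14 core words (SD, n = 94) and 61.7% had GGGAA, against 4.49 ± 2.39 (n = 323) and 45.2% in the other regions of these genes. Of those others that were tested 151 shifted down and 169 up, with a median shift of 0.04. A region at the start site was tested for 21 of the 30 genes, and 5 of the 36 such regions were lower, at Irs1, Lmtk2, Smad3, Rai1 and Samd4. Of all tested regions 3.91% were lower, but these genes were picked for their closing regions, so a larger share here follows from the choice. Among start site regions that were not called, those of Ift122 (mean tested percentile 86.2 at 0 h and 86.6 at 2 h) and Nedd9 (88.0 and 90.5) stood at similar places, while those of Shb (38.9 and 4.98), Sntb1 (61.0 and 20.7), Zcchc7 (91.8 and 52.6) and Angpt1 (29.8 and 8.90) stood further apart without passing the test.

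**Figure D3:**
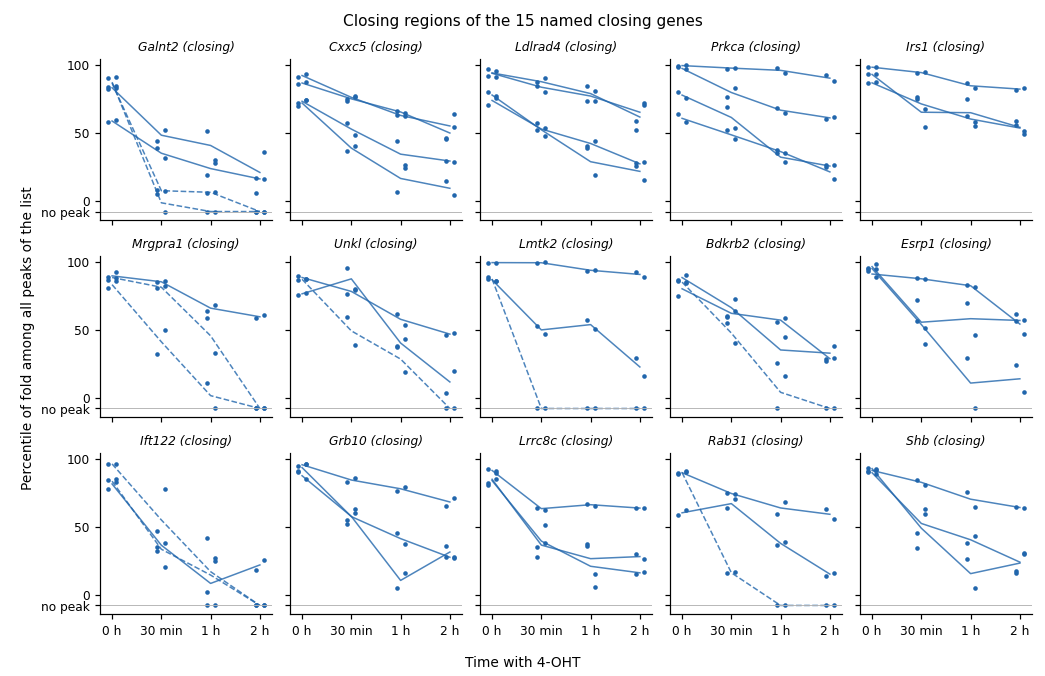
List percentile of each closing region in all 8 libraries (points; vertical axis) at 0 h, 30 min, 1 h and 2 h (horizontal axis) for the 15 named closing genes, with lines through the means, solid for lower and dashed for lost regions. A library with no peak is drawn at the line marked no peak, and each region ends below its 0 h points.

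Among signalling adaptors and kinases, Grb10, an adaptor that restrains insulin receptor signalling, had 3 closing of 9 regions. Its strongest fall was in an intron (chr11:11948320-11948844), at tested percentiles of 84.1 and 93.3 before treatment, then 22.3 and 34.4 at 30 min, 14.5 and 12.3 after 1 h, and 7.92 and 8.75 after 2 h (shift −2.63 ± 0.28 SE, adjusted p = 0.00176, limma). The 0 h and 2 h libraries lay far apart and the 30 min libraries between them. Irs1, the insulin receptor substrate, had 3 closing of 4 regions, and the one 190 bp from its start (chr1:82291427-82291784) went from 76.4 and 79.3 to 27.0 and 25.4 (shift −1.41 ± 0.24, adjusted p = 0.00585). Shb, an SH2 adaptor, had 3 closing of 11 regions, led by an intronic one (chr4:45492028-45492263) at 87.8 and 87.4 before and 3.63 and 10.7 after 2 h (shift −2.68 ± 0.41, adjusted p = 0.00373). Prkca, protein kinase C alpha, had 4 closing of 30 regions in its long introns. The leading one (chr11:108173731-108174054) was at 96.4 and 94.2 before treatment, then 55.0 and 69.6 at 30 min, 40.6 and 39.1 after 1 h, and 32.7 and 36.0 after 2 h (shift −2.09 ± 0.26, adjusted p = 0.00216). Another (chr11:108114179-108114459) fell from 98.3 and 99.4 only to 84.9 and 77.3 and so remained among the stronger regions. Lmtk2, a membrane-anchored kinase, had 3 closing of 6 regions, of which an intronic one (chr5:144125995-144126432) went from 78.6 and 77.2 to 8.65 and 4.27 (shift −2.31 ± 0.25, adjusted p = 0.0018). Its upstream lost region had 30 and 21 fragments at 0 h and no peak at any later time.

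Esrp1, an RNA-binding regulator of splicing known from epithelial cells, had the largest single fall of the named closing genes. Its intronic region (chr4:11348252-11348623) held 102 and 70 fragments at 0 h, and its tested percentile went from 91.7 and 91.0 to 24.4 and 23.8 at 30 min and 6.01 and 0.643 at 2 h (shift −3.38 ± 0.34, adjusted p = 0.00178). At 1 h 1 of the 2 libraries had no peak there. Unkl, a zinc finger gene, had 3 closing of 5 regions. In its leading region (chr17:25224318-25224561) the 30 min libraries (91.5 and 63.6) did not lie below the 0 h ones (59.3 and 64.4), and the fall to 0.526 and 5.76 at 2 h (shift −2.37 ± 0.41, adjusted p = 0.00561) came after 30 min. Cxxc5, whose product binds CpG DNA, had 4 closing of 18 regions, the leading one (chr18:35847611-35847823) at 50.4 and 60 before and 2.98 and 0.725 after (shift −2.3 ± 0.35, adjusted p = 0.00371).

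Receptor, transport and membrane genes made up the rest of the named closing genes. Galnt2, an enzyme that starts O-linked glycosylation, had 4 closing of 14 regions, 2 lower and 2 lost. One lost region (chr8:124294522-124294850) stood at list percentiles of 90 and 84.3 at 0 h with 45 and 29 fragments, had 6 fragments in 1 of the 30 min libraries, and had no peak in the other 5 libraries. Its leading lower region (chr8:124279408-124279741) was at tested percentiles of 71.7 and 72.5 before and 0.992 and 13.3 after (shift −2.31 ± 0.40, adjusted p = 0.0057). Rab31, a small GTPase of endosomes, lost an intronic region 1243 bp from its start (chr17:65771255-65771538), with 50 and 43 fragments at 0 h, at list percentiles of 88.4 and 91.1, then 15.5 and 16.6 at 30 min, and no peak at 1 h or 2 h. Ift122, a cilium transport gene, had 1 lower and 2 lost of 7 regions, and the stronger lost one (chr6:115878812-115879015) held 10 core words and was at 95.8 and 96.4 at 0 h. Bdkrb2, a bradykinin receptor, had 3 closing of 7 regions, all between genes, the leading one (chr12:105547237-105547507) from 76.4 and 84.3 to 7.72 and 14.9 (shift −2.1 ± 0.34, adjusted p = 0.00467).
Lrrc8c, a subunit of the volume-regulated anion channel, had 3 of 10, led by chr5:105586688-105587167 from 69.9 and 76.4 to 3.42 and 4.42 (shift −2.38 ± 0.40, adjusted p = 0.00506). Ldlrad4, which restrains TGF-beta signalling, had 4 of 26, led by chr18:68194540-68194799 from 66.0 and 62.0 to 7.95 and 3.95 (shift −1.94 ± 0.28, adjusted p = 0.00304). In each of these the 2 h libraries lay below the 0 h ones, as in every lower region. Mrgpra1 had 3 of 5, 2 of them lost, and lies in the same cluster of near-identical receptor genes as Mrgpra2a.

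The other 15 closing genes each had 3 closing regions: Angpt1, Pik3r1, Smad3, Sntb1, Ext1, Nedd9, Rai1, Nfatc1, Samd4, Sema4d, Plcg2, Ttll11, Zcchc7, Ctif and Nav2. They fall outside the rule for named genes and were listed after their values were seen. Nedd9, a scaffold of integrin signalling, fell in 3 introns with mean tested percentiles of 96.3, 89.5 and 84.3 at 0 h and 36.6, 24.7 and 35.0 at 2 h. Smad3, the TGF-beta effector, fell at its start site from 35.4 ± 3.20 to 2.66 ± 2.85 (SD, n = 2; shift −1.71 ± 0.34, adjusted p = 0.00974) and in 2 introns.

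Gene lists by function were read against the background of all tested regions. This reference is low for genes with many regions. Of tested or strong regions, 3.1% closed at genes with 1 to 4 of them and 4.95% at genes with 5 to 9. The share was 6.33% at 10 to 19 and 7.97% at 20 or more. The PI3K list had 140 tested regions at 24 genes and the pre-BCR list 184 at 24, against a median of 2 regions over all genes. Shares above the background may thus reflect the number of regions per gene, which was not tested. In the PI3K, AKT and mTOR list 15 of 140 tested regions were lower (10.7%) and 2 higher, against 3.91% and 1.74% of all tested. The stem and myeloid programme had 6 of 56 lower (10.7%), pre-BCR signalling 14 of 184 (7.61%), apoptosis 6 of 79 (7.59%), and integrins, matrix and adhesion 8 of 110 (7.27%). For apoptosis this did not hold in other settings: with ranks among all peaks 1 of its 79 regions was lower (1.27% against 2.12% of all), and with the 4 libraries alone 2.53% against 2.45%. The NuRD and corepressor list had more higher than lower regions at this threshold, with 2 of 123 lower (1.63%) and 5 higher (4.07%). A list's median region hardly moved: medians ran from −0.21 (B-lineage transcription factors) to 0.22 (stem and myeloid programme), against 0.06 over all tested regions, and several flip with the scale: with ranks among all peaks, where the median of all is 0.16, the pre-BCR list went from −0.07 to 0.07 and the PI3K list from −0.03 to 0.08. The lists were chosen with earlier results known, so these counts are descriptions without a test.

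**Figure D4:**
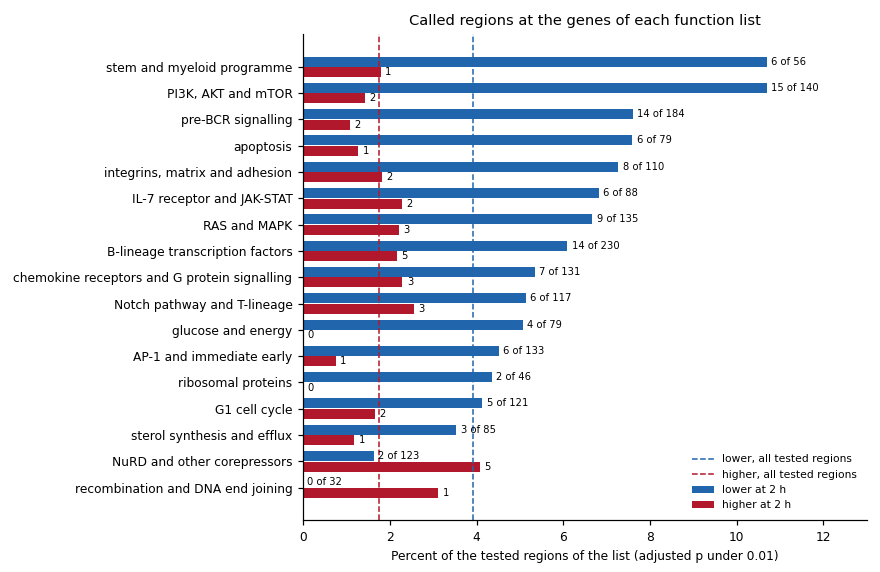
Percent of the tested regions of each function list reported here that were lower (blue bars) or higher (red bars) at 2 h, with the counts beside the bars and dashed lines at the shares over all tested regions (3.91% and 1.74%). The PI3K and the stem and myeloid lists reach 10.7% lower, and the NuRD list is the one list with more regions higher (5) than lower (2) among those with more than 1 call.

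In the PI3K list the closing regions lay both at activators and at restraints of the pathway. Pik3r1, the regulatory subunit of PI3-kinase, had 3 lower of 13 tested regions. The leading one (chr13:101797085-101797380) went from tested percentiles of 55.5 and 75.3, with 29 and 29 fragments, to 0.844 and 3.30 at 2 h (shift −2.53 ± 0.34, adjusted p = 0.00316). Phlpp1, a phosphatase that removes the activating phosphate of AKT, had 2 of 13, led by an intronic region (chr1:106316980-106317255) from 95.8 and 93.1 to 24.4 and 20.6 (shift −2.36 ± 0.25, adjusted p = 0.00176). Foxo3, a transcription factor that AKT holds out of the nucleus, had 2 of 12, both intronic, the stronger shift from 57.4 and 81.7 to 7.07 and 5.95 (−2.06 ± 0.31, adjusted p = 0.00366). Inpp5d, the lipid phosphatase SHIP1, had 1 lower and 1 higher intronic region, 1652 and 5079 bp from a start site. The former (chr1:87621822-87622279) went from 68.2 and 72.7 to 12.8 and 21.4 and the latter (chr1:87625406-87625550) from 1.80 and 5.01 to 33.6 and 46.3. The list's share of lower regions was above that of all tested in each of 10 other settings that kept all 4 libraries, between 0.714% against 0.68% and 16.4% against 10.4%. It could not be compared with a library left out, where no region was called.

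The pre-BCR list covers the receptor that tells a pre-B cell that its heavy chain works, and the kinases and adaptors behind it. Plcg2, the phospholipase that raises calcium after receptor signals, had 3 lower of 20 regions; the leading one (chr8:117543829-117544122) went from 97.1 and 87.5, with 111 and 59 fragments, to 31.9 and 32.7, with 29 and 26 (shift −1.98 ± 0.32, adjusted p = 0.00431). Ptpn6, the phosphatase SHP-1 that dampens the receptor, had 2 adjacent intronic regions that fell, the stronger (chr6:124730253-124730454) from 77.1 and 78.6 to 0.679 and 3.41 (shift −2.91 ± 0.44, adjusted p = 0.00366). Blnk, the adaptor downstream of SYK, fell in 2 regions between genes, from mean percentiles of 36.0 and 43.5 to 2.26 and 3.85, and Pik3ap1, an adaptor for PI3-kinase, in 2, of which one lies 228 bp from its start (66.0 and 80.1 to 21.7 and 8.81). Cd79b, a signalling chain of the receptor, lost a strong region while its start site region went from list percentiles of 86.4 and 89.7 to 94.0 and 91.6 and was not called.

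Among the surrogate light chain genes, known targets of Ikaros, Vpreb1 showed a change that the strength rule misses. The start site of Vpreb1 (chr16:16869207-16869487) had 79 and 43 fragments at 0 h, 20 and 17 at 30 min, and no peak at 1 h or 2 h. Its list percentiles at 0 h were 69.7 and 53.7, below the limit for strong, so it is not among the 289 lost regions. The start site region of Igll1, its partner, had 122 and 94 fragments before treatment, then 50 and 44 at 30 min, 35 and 22 after 1 h, and 26 and 23 after 2 h, with list percentiles from 82.1 and 81.7 to 60.7 and 62.3, and did not pass the test (shift −0.91, adjusted p = 0.0514). Vpreb2 had 2 tested regions, with 0 lower and 0 higher and a median shift of −0.02. Fragments are not scaled for depth.

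In the IL-7 receptor and JAK-STAT list 6 of 88 tested regions were lower (6.82%) and 2 higher (2.27%), against 3.91% and 1.74% of all tested. The calls concentrated at Jak1, the kinase that IL-7 receptor signalling uses, which held 21 of the tested regions. Jak1 had 4 lower and 1 lost region and also 1 higher region, so it is not counted as a closing gene. The leading lower region, intronic (chr4:101298370-101298870), went from 90.4 and 90.2 with 109 and 74 fragments to 3.89 and 10.6 with 14 and 16 (shift −2.81 ± 0.30, adjusted p = 0.00176). The higher region, also intronic (chr4:101255576-101255799), went from 1.02 and 1.35 to 48.7 and 47.9 (shift 2.22 ± 0.25, adjusted p = 0.00186). It lies 9594 bp from a start site, and a lower region at 11088 bp from one went from 70.5 and 82.8 to 15.9 and 16.2. The 0 h and 2 h libraries did not overlap in either region, which held for every called region and for 62.3% of all tested regions. These distances do not give the distance between the regions, which moved in opposite directions. At Stat3, a lower region (79.8 and 79.2 to 21.2 and 21.0) lay 12742 bp and a gained one, with 29 and 24 fragments at 2 h, lay 8201 bp from a start site.

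B-lineage transcription factor genes had calls in both directions, 14 lower and 5 higher of 230 tested regions. These were 6.09% and 2.17%, against 3.91% and 1.74% of all tested. Ebf1, a B-cell specification factor, had 1 lower, 1 lost and 1 higher intronic region, 196650, 215711 and 215008 bp from the nearest start site of any gene. The region at the start of Ebf1 itself (chr11:44617074-44617413) lies further away. The lower one (chr11:44920105-44920450) went from 98.2 and 94.9 to 21.6 and 5.15 (shift −3.07 ± 0.38, adjusted p = 0.00214), the higher one (chr11:44901770-44902069) from 10.5 and 10.8 to 66.7 and 85.1 (shift 1.98 ± 0.29, adjusted p = 0.00319), and the lost one had 38 and 34 fragments at 0 h. Runx1 also had 1 lower, 1 lost and 1 higher region. Ikzf1 itself had a lower intronic region (60.5 and 73.1 to 2.56 and 2.1; adjusted p = 0.00834), which is a measure of the cells' own gene and not of the amount of Ikaros-ERt2. Fli1, an ETS factor, had 2 lower regions, the stronger from 85.8 and 95.0 to 13.1 and 15 (shift −2.44 ± 0.30, adjusted p = 0.00214). Bach2, a repressor of plasma cell differentiation, had a lower intronic region (80.3 and 78.3 to 6.32 and 3.33) and a higher region 6874 bp from a start site (2.74 and 15.4 to 84.5 and 68.1).

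Single strong falls were found at cell cycle and adhesion genes. Cdk6, the G1 kinase, had a lower region in an exon of a non-coding transcript (chr5:3472710-3473093) from 97.9 and 96.6 to 13.2 and 1.24, the largest shift of the genes named by list (−3.61 ± 0.38, adjusted p = 0.00174). It lay 7971 bp from the nearest start site of any gene. A gained region, with 30 and 28 fragments at 2 h, lay 9848 bp from such a site but 126713 bp from the nearest start of Cdk6. A lost region with 50 and 26 fragments at 0 h had no peak from 30 min on. Ccnd3, cyclin D3, fell in an intronic region from 77.9 and 78.9 to 6.24 and 2.31 (shift −2.55 ± 0.27, adjusted p = 0.00174). Among adhesion genes, Itgal, the alpha chain of LFA-1, fell from 97.8 and 98.6 to 54.2 and 62.3, Itga5 from 53.5 and 54.0 to 6.18 and 0.973, and Pxn, paxillin, in 2 introns, while Itga4, the alpha chain of VLA-4, rose 24340 bp from its start from 21.5 and 6.39 to 86.5 and 82.7 (shift 2.18 ± 0.31, adjusted p = 0.00304).

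Survival, myeloid and lineage genes gave smaller sets. At Bcl2l1, which encodes BCL-XL, a region 15 bp from a start site fell from 61.6 and 87.4 to 10.9 and 13.8 (shift −1.88 ± 0.33, adjusted p = 0.00627), and an intronic region of Bcl2 from 83.9 and 89.1 to 41.3 and 33.7 (−1.43 ± 0.25, adjusted p = 0.0061). Casp8 had 2 lower regions. Pmaip1 had 1 lower and 1 gained region, the latter with 25 and 23 fragments at 2 h, and Bid had 1 higher region. In the stem and myeloid list 7 genes had 1 closing region each, among them Cebpe (67.1 and 45.8 to 3.29 and 2.19), Gfi1b (53.2 and 58.6 to 0.107 and 3.98) and Hhex (72.3 and 81.2 to 8.06 and 1.45). Cebpb had the list's 1 higher region of 56 tested (1.79%, against 1.74% of all tested). The list's median region shifted by 0.22, against 0.06 over all tested. The start site of Lyz2, a lysozyme gene of myeloid cells, had 30 and 23 fragments at 0 h and no peak at any later time. In the Notch and T-lineage list Cd4 had 2 lower regions (the stronger from 73.3 and 64.7 to 7.01 and 2.3), Dtx1 fell from 91.8 and 90 to 13.4 and 5.84, and Hes1 rose in its coding exon from 0.0663 and 0.864 to 24.0 and 27.4. The start site of Cd4 went the other way, with no peak at 0 h and 8 and 5 fragments at 2 h. Of the 8 T cell markers 0 had a start site peak in both 0 h lists and 2 in both 2 h lists.

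The other lists had smaller shares of lower regions, to be read against the 3.91% of all tested regions. The G1 list as a whole had 5 lower regions (4.13%), AP-1 and immediate early genes 6 of 133 (4.51%), sterol genes 3 of 85 (3.53%), ribosomal protein genes 2 of 46 (4.35%), glucose and energy genes 4 of 79 (5.06%), Notch and T-lineage genes 6 of 117 (5.13%), chemokine receptor and G protein genes 7 of 131 (5.34%), B-lineage factors 6.09%, RAS and MAPK genes 9 of 135 (6.67%) and the IL-7 list 6.82%. Single members still fell far: Hk2, hexokinase 2, from 78.2 and 91.4 to 3.91 and 11 (shift −2.57 ± 0.34, adjusted p = 0.00244), Txnip from 94.6 and 94.8 to 7.08 and 32.8 (−2.57 ± 0.34, adjusted p = 0.00239), Batf, an AP-1 factor, from 86.2 and 90.1 to 3.06 and 15.7 (−2.63 ± 0.34, adjusted p = 0.00238) and Abca1, the cholesterol exporter, from 94.1 and 98.9 to 36.3 and 35.6 (−2.29 ± 0.33, adjusted p = 0.00316). Rgs3 and Spred2, restraints of G protein and RAS signalling, had 1 and 3 lower regions, each beside 1 higher. In the recombination list 1 region of 32 tested was called, a higher one (3.12%, against 1.74% of all tested). It rose 30 bp from a start site of Rag2, from 8.41 and 4.58 to 62.5 and 52.9 (shift 1.73 ± 0.28, adjusted p = 0.00474). The start site region of the neighbouring Rag1, which the assignment gave to another gene, had list percentiles of 75.5 and 65.6 at 0 h and 36.7 and 36.5 at 2 h and did not pass the test (shift −1.23, adjusted p = 0.0303).

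NuRD and corepressor genes had single higher regions. Gatad2b, a NuRD subunit, rose in an intron 1347 bp from a start site from 22.9 and 8.61 to 90.8 and 83.4 (shift 2.2 ± 0.32, adjusted p = 0.00328), and Gatad2a between genes from 22.9 and 29.7 to 83.4 and 89.0 (1.74 ± 0.32, adjusted p = 0.00691). Hdac9 rose in an intron from 14.9 and 10.1 to 73.5 and 68.7 (1.72 ± 0.28, adjusted p = 0.00459), and regions of Mta3 and Sin3a were higher too. Hdac5 fell from 35.4 and 69.9 to 0.827 and 2.19 (−2.28 ± 0.39, adjusted p = 0.00691). With a peak in at least 2 of the 4 lists required in place of 4, the list's share of lower regions was 13.2%, above the 11.3% of all regions in that fit, with 32 lower and 15 higher, and at an adjusted p under 0.05 it had 13 lower (10.6% against 10.4%) and 12 higher. The excess of higher over lower regions therefore depends on the filter and the threshold.

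Opening genes were fewer than closing genes: 30 genes had 2 or more opening and no closing regions, against 174 with 2 or more closing and no opening regions. The rule names 10 of the 30, with 3 opening regions at Edil3 and 2 at each of the others, of 3 to 17 regions. Edil3, a secreted integrin ligand, had 2 higher and 1 gained intronic region. The first (chr13:89153994-89154329) went from 6.64 and 29.7 at 0 h, with 6 and 8 fragments, through 56.0 and 54.1 at 30 min and 79.5 and 73.3 at 1 h to 89.7 and 84.5 at 2 h, with 53 and 47 fragments (shift 2.16 ± 0.33, adjusted p = 0.00375). The gained one had no peak at 0 h and 26 and 18 fragments at 2 h, at list percentiles of 91.4 and 81.6. All libraries of 2 h lay above those of 0 h, as in every higher region, with the earlier times between.

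**Figure D5:**
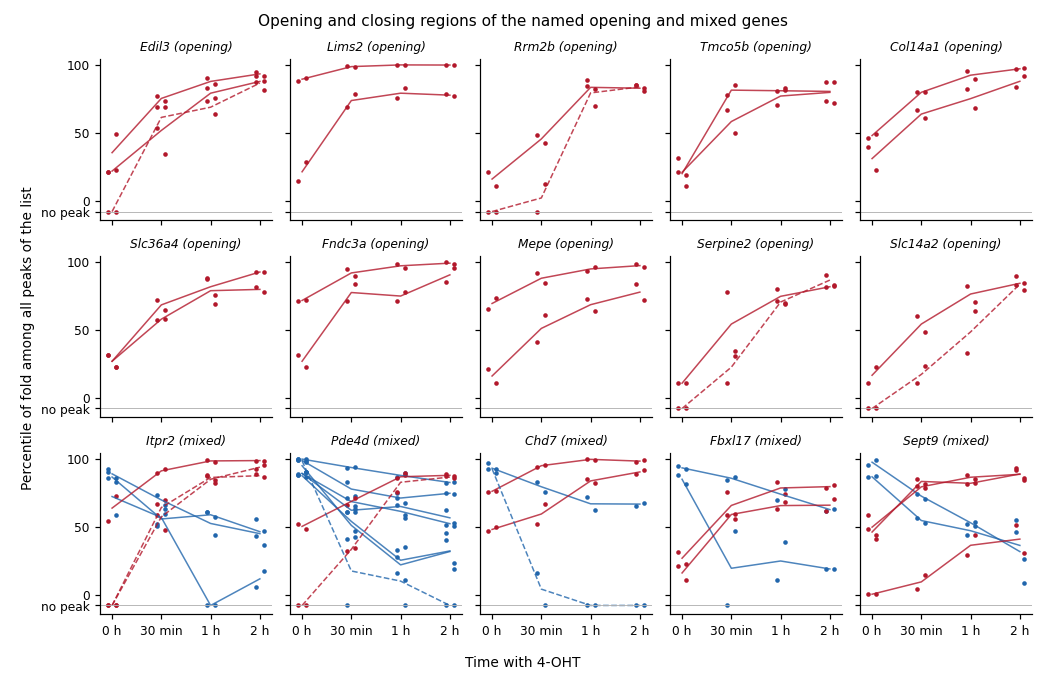
List percentile of each opening (red) and closing (blue) region in all 8 libraries (points; vertical axis) at 0 h, 30 min, 1 h and 2 h (horizontal axis) for the 10 named opening and 5 mixed genes, with lines through the means, dashed for gained and lost regions. Libraries with no peak are at the line marked no peak, and in the mixed genes red and blue lines cross.

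The other opening genes have varied roles. The last of them by rank, Fndc3a, Mepe, Serpine2 and Slc14a2, stand level with Sptlc2 and Umad1, which were not named only because ties were settled by name. Col14a1, a collagen, rose in 2 introns, the stronger (chr15:55457955-55458126) from 22.9 and 29.7 to 93.2 and 95.0 (shift 2.21 ± 0.27, adjusted p = 0.00204). Serpine2, a protease inhibitor, had 1 higher region (2.74 and 3.09 to 63.9 and 66.8; shift 2.29 ± 0.43, adjusted p = 0.00754) and 1 gained region, and Mepe, a bone matrix protein, 2 higher regions. Lims2, an adaptor of integrin-linked kinase, rose in a coding exon (chr18:31941731-31941966) from 79.7 and 84.5 to 99.7 and 99.3 (1.68 ± 0.26, adjusted p = 0.00414), and was already strong at 0 h. Rrm2b, the p53-responsive ribonucleotide reductase subunit, rose from 6.64 and 3.09 to 70.4 and 64.5 (2.14 ± 0.26, adjusted p = 0.00202), with the jump between 30 min (16.0 and 16.4) and 1 h (68.7 and 67.6), and also had a gained region with no peak at 0 h and 25 and 23 fragments at 2 h. Slc36a4, an amino acid transporter, rose in its leading region from 11.7 and 8.61 to 84.3 and 86.2 (2.33 ± 0.27, adjusted p = 0.00194), Fndc3a from 11.7 and 8.61 to 71.7 and 90.8 (2.23 ± 0.34, adjusted p = 0.00375), Tmco5b from 6.64 and 6.74 to 50.7 and 76.3 (1.87 ± 0.31, adjusted p = 0.00475) and Slc14a2, a urea transporter, from 2.74 and 8.61 to 79.2 and 61.4 (2.2 ± 0.32, adjusted p = 0.00314). Low 0 h percentiles rest on few fragments, and equal ones recur because such values tie. Over the 904 higher regions the median summit had 10 and 7 fragments in the 0 h libraries, so the size of a single rise is imprecise. Opening regions of these 10 genes held 3.24 ± 1.73 core words (SD, n = 21), against 3.36 ± 1.73 (n = 33) in their other regions. A start site region was tested at only 2 of the 10, and neither was called.

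In 7 genes at least 2 regions closed and at least 2 opened. Itpr2, an IP3 receptor that releases calcium, had 3 of each among 31 regions. A pair of these lie side by side upstream, 19484 and 19931 bp from the start: chr6:146521553-146521771 fell from 86.3 and 76.7 to 16.1 and 21.4 (shift −1.80 ± 0.28, adjusted p = 0.00373) and chr6:146521985-146522232 rose from 30.9 and 58.4 to 97.2 and 97.2 (2.05 ± 0.32, adjusted p = 0.00383). Pde4d, a cAMP phosphodiesterase, had 7 closing and 2 opening of 62 regions. Its leading region (chr13:108956170-108956439) fell from 98.2 and 84.7 to 14.6 and 6.91 (−2.83 ± 0.43, adjusted p = 0.00359), and a strong one (chr13:109239314-109239690) from 98.9 and 99.9 to 65.8 and 68.1. Chd7, a chromatin remodeller, had 1 lower, 1 lost and 2 higher of 11 regions, Fbxl17, an F-box gene, 2 lower and 2 higher of 11, and Sept9, a septin, 2 lower and 3 higher of 26. Sgms1 and Tcf4 complete the set. Over the 7 genes the 20 closing regions held 6.10 ± 1.55 core words (SD) and the 17 opening ones 2.59 ± 1.37, with 4.18 ± 2.24 in the 149 others. These means pool the 7 genes, and regions were not compared within each gene. Besides Jak1 and Arhgap26, 11 genes had 3 or more closing regions and 1 opening one, listed after their values were seen, and among them are Mtss1, Rad51b, Aff1, Akap13, Iqgap2, Pip4k2a, Spred2, St6gal1 and Ttc28.

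The strong regions that vanished or appeared stood mostly alone: 6 genes had 2 lost regions and 1 gene had 2 gained regions. The strongest lost region, between genes on chromosome 2, had 78 and 60 fragments at 0 h, 18 and 22 at 30 min, a peak in 1 of the 1 h libraries with 4 fragments, and none at 2 h. That near Mrgpra2a had 55 and 37 fragments at 0 h and 8 and 11 at 30 min, that near Disp3 75 and 54 at 0 h and 8 in each library of 30 min and 1 h, and that in an intron of Pde4d 60 and 47 at 0 h and 8 in 1 of the 30 min libraries. The next were a region between genes on chromosome 4 (68 and 49 fragments) and one near Dmrtb1 in an exon of a non-coding transcript (64 and 41). The strongest gained region, in an intron of Gsk3b, a kinase inhibited by AKT, had no peak at 0 h, then 17 and 17 fragments at 30 min, 31 and 31 after 1 h, and 39 and 39 after 2 h. Sppl2a, an intramembrane protease of B cells, gained an intronic region with 14 and 7 fragments at 30 min and 42 and 35 at 2 h, and near Mtnr1b, a melatonin receptor gene, one had 19 and 9 and then 45 and 31. The region at Igkv4-80 had 14 and 8 at 30 min and 36 and 33 at 2 h, that in an intron of Rbm38 27 and 27 and then 110 and 89, and that of Atxn10 31 and 28 and then 57 and 47. No peak means that a region did not pass the peak caller's threshold, and the weakest peaks of the 4 lists had 3 or 4 fragments, so lower accessibility below that level would not be seen. The count of lost regions was 579 without 0 h replicate 2, 476 without 2 h replicate 1 and 442 without 2 h replicate 2, and that of gained regions 337 without 0 h replicate 1, 224 without 0 h replicate 2, 296 without 2 h replicate 1 and 317 without 2 h replicate 2, since fewer lists then have to meet the rule.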

How the data were processed

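Accessibility was measured by omni-ATAC-seq in 8 libraries of B3 cells, 2 per time. Per the labels and the methods, the authors aligned reads with BWA 0.7.17, kept nucleosome-free fragments of up to 120 bp and called peaks in each library alone with MACS2 2.1.2, without a control. The deposited lists give for each summit a fold (ratio) over local background and −log10 p and q values. Builds named in the sources differ, and all peaks lie within the chromosomes of GRCm38, which was used with the GENCODE M21 basic annotation.

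Fragments at a summit were recovered from fold and p, with 99.97 to 100.0% of values whole within 0.0001, and are not scaled for depth. Overlapping peaks were merged. Folds of the regions present in all 4 lists were ranked, turned into normal scores and tested with limma 3.58.1 in R 4.3.3, with the 30 min and 1 h libraries in the fit for the spread and Benjamini-Hochberg adjustment (adjusted p under 0.01). An exact permutation test of 2 against 2 libraries cannot go below p = 0.333. The scripts, in Python 3.11.15, were tested on simulated data. A region was assigned to the protein-coding gene whose body, extended 5 kb upstream, holds it, or else to the nearest start within 50 kb. A start site given without the name of its gene can be that of another annotated transcript.

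The genes named are the 15 closing genes and the 10 opening genes highest by number of regions of one direction with none of the other, then by share, the 5 mixed genes, and up to 4 genes of each function list with most called regions. The members and lists were chosen with earlier results of these data known. Alternatives changed the rank, scale, filter, threshold, fit, strength limit and gene assignment, and left out each library. A marker and a function list are not reported here.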

Additional observations from a re-analysis of the deposited data

How the results depend on the processing

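The 2037 lower and 904 higher regions became 1101 lower (ranks among all peaks), 3280 and 1552 (log2 fold centred on each library), 11676 and 5513 (a peak in at least 2 of the 4 lists), 1277 and 384 (only the 4 libraries in the fit), 3349 and 2291 (mean trend and robust prior), 5436 and 3900 (adjusted p under 0.05) and 354 and 86 (minimum shift of 0.5). With 1 library left out, 0 to 0 regions passed in either direction with limma, at an adjusted p under 0.05 2580 to 2706 were lower and 1108 to 2236 higher, and the lone library was assumed to vary like the other groups. The 30 closing genes became 6, 60, 388, 7, 52, 128 and 1 under the same settings in that order, 4 with at least 4 regions required, and 0 to 0 with a library left out. The 1 opening gene became 3 (log2 fold), 56 (at least 2 lists), 0 (only 4 libraries), 7 (trend), 25 (adjusted p under 0.05), 0 (minimum shift), 0 (nearest start within 100 kb), 0 (at least 4 regions), 4 with closing regions allowed, a choice made after seeing the data, and 0 to 0 with a library left out. The 289 lost and 149 gained regions became 53 and 20 at percentile 90, 91 gained with lists of equal length, and 416 to 579 lost and 224 to 337 gained with a library left out.

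With the replicate number as a block 1508 regions were lower and 591 higher, and 13 genes were closing genes. The numbers do not show a pairing: deviations of same-numbered libraries from their group means correlated at 0.0236 over the tested regions. Of 296 values for the 30 named regions under alternatives that kept every library, 252 passed the threshold, 44 did not and 0 reversed, and of 120 with a library left out 0 passed and 0 reversed. Depth limits weak peaks, whose summits hold as few as 3 fragments.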
